A study of Caenorhabditis elegans with 47 samples.

Results

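The worms compared here were harvested at the 2 ends of a time course: at the moment of a temperature upshift (T0) and 20 hours later (T20). Of the 47 whole-worm Affymetrix arrays of the nematode Caenorhabditis elegans, 6 belong to this comparison, 1 at T0 and 1 at T20 from each of 3 strains. The GFP strain expressed green fluorescent protein, the GFP::degron strain expressed that protein joined to a degron, a signal that sends its carrier to degradation, and the Abeta strain expressed the amyloid-beta peptide of Alzheimer's disease. All 3 strains were raised at 16 °C on OP50 bacteria until early in the third larval stage and then moved to 25 °C, so every T20 worm was both older and longer at the higher temperature, and age and temperature cannot be told apart in this comparison. The labels give neither the promoter, the tissue nor the alleles behind the transgenes, nor how many animals went into a sample. T20 was set against T0 within each strain, the strain serving as the pair, and a gene was judged by whether the 3 strains agreed and by whether 1 strain departed from the others.

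Between the third larval stage and adulthood a hermaphrodite worm molts into its adult cuticle, its germline multiplies until it holds most of the animal's nuclei, and that germline makes sperm first and oocytes afterwards. Sperm are built with the major sperm proteins, small cytoskeletal proteins encoded by many near-identical genes that are used in no other tissue. Yolk proteins (vitellogenins, the vit genes) are made in the adult intestine and taken up by oocytes, and in C. elegans germ cells the X chromosome is kept largely silent. The heterochronic genes form a regulatory cascade that sets which larval or adult program the epidermis runs.

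The values were probe set intensities, analysed as log2(intensity + 1) with every array centred on its median, so that a level of 6 corresponds to an intensity of about 63 and a difference of 1 is a factor of 2. For 17118 genes, each read from its brightest probe set naming that gene alone, the shared change is the mean of the 3 T20 minus T0 differences with its standard error (SE; 3 pairs, 2 residual degrees of freedom), and a gene was called at an adjusted p under 0.05 in limma. Median intensities were 87.4 (GFP), 60.1 (GFP::degron) and 87.8 (Abeta) at T0, and 95.6 to 97.7 at T20. The GFP::degron T0 array was thus the dimmest, with 3.51% of genes at an intensity under 1 against 0.941% to 1.7% on the other 5 arrays. Centring does not restore such near-zero readings, and results that rest on that array are given with its values. With 1 array per strain and time, the p-values measure the spread between the 3 strains and not the spread between cultures of a strain.

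Of the 17118 genes, 1849 (10.8%) were called higher and 2967 (17.3%) lower at T20, 4816 (28.1%) in all, and every call had 1 sign in all 3 strains. The rises were large and the falls moderate: 799 genes rose by at least 2 on the log2 scale in every strain, and 72 fell by at least 2. The 3 T20 levels all lay above the 3 T0 levels for 2383 genes (13.9%) and all below for 5524 (32.3%). At a limit of 4 the counts were 233 and 0, and 82 genes rose by at least 6 in each strain. The median gene stood at -0.39 at T20 relative to T0 (-0.37, -0.37 and -0.38 in the GFP, GFP::degron and Abeta strains), and the changes below are to be read against that shift. Without centring, the median gene stood at -0.02, and 1917 genes were called higher and 727 lower, so the share of calls that were higher was 38.4% with centring and 72.5% without. Counts of a list without centring are to be read against these 1917 and 727 of 17118 genes. Leaving out a strain left 948 higher and 328 lower genes without the Abeta pair, 1228 and 931 without the GFP pair, and 1487 and 1295 without the GFP::degron pair. Each strain's own test, in which the lone T0 and T20 arrays were assumed to vary like the replicated time points, called 1602 genes higher (9.36%) and 2168 lower (12.7%) in GFP worms, 1345 (7.86%) and 2824 (16.5%) in GFP::degron worms, and 1139 (6.65%) and 2114 (12.3%) in Abeta worms. Of these, 689 genes were higher and 805 lower in all 3 strains' own tests.

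Sperm genes made the largest group of rises. All 23 measured major sperm protein genes rose, by 7.12 to 10.4 on the log2 scale, with a median of 7.65 against -0.39 for all genes. In whole worms, more or fewer cells of a type and more or less RNA per cell cannot be told apart, here and in the lists below. msp-142 stood at 3.77, 3.52 and 3.13 at T0 in the GFP, GFP::degron and Abeta strains and at 11.98, 11.02 and 11.64 at T20. Its groups were far apart in every strain, and the shared change was 8.07 (SE 0.28, adjusted p = 0.00113). The msp genes are near-identical copies, so single members cannot be told apart with confidence, and the 8 probe sets that name several msp genes rose by 6.69 to 9.49. Of 39 other sperm genes 34 rose and none fell, with a median change of 3.90. They included gsp-3 (9.15) and gsp-4 (5.51), sperm-enriched catalytic subunits of protein phosphatase 1, spe-11 (6.40), which supplies a paternal factor to the egg, spe-44 (3.18), a transcription factor of spermatogenesis, and fer-1 (2.76), needed for membrane fusion when the spermatid is activated. nspd-1, a nematode-specific gene of a sperm-enriched family, went from 0.13, 0.61 and 2.11 to 10.94, 10.43 and 11.18, a shared change of 9.90 (SE 0.38, adjusted p = 0.00122). Its T0 intensity was near 0 in GFP and GFP::degron worms, so the size of this change depends on the added constant, and with 16 added it was 6.61. Of 33 proteasome subunit genes 1 rose, rpn-6.2, from 5.09, 2.67 and 5.07 to 9.70, 9.31 and 9.23, whereas the list's median of -0.23 lay near that of all genes and was 0.15 without centring. his-70, a histone H3 variant gene, rose by 5.92 (SE 0.57, adjusted p = 0.00557), while 5 of 35 core and linker histone genes rose and 6 fell, with a median of -0.15 (0.23 without centring).

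Genes at the top of the ranking were not all known sperm genes. By the smallest of the 3 strains' changes, the leading gene in the values as deposited was col-63, a cuticle collagen, which went from 8.47, 7.88 and 7.39 at T0 to 19.37, 18.96 and 19.22 at T20. Its T20 values lay above the 16-bit maximum of 65535 that a scanner can record, as did 26 values of 15 probe sets (8 genes) on these arrays, all at T20. With such values set to that maximum, the shared change of col-63 was 7.93 in place of 11.27 (SE 0.27, adjusted p = 0.00106). That lies below the smallest change of nspd-1 (9.07) and of gipc-1 (9.09), so col-63 then no longer led. sams-5, an S-adenosylmethionine synthetase gene, went from 6.93, 6.99 and 6.78 to 15.12, 15.42 and 15.60, a shared change of 8.48 (SE 0.23, adjusted p = 0.00106). All 3 strains started and ended close together in this gene. gipc-1 rose from 0.09, 0.60 and 0.00 to 10.28, 9.70 and 9.95, and nsph-3.1 from 0.16, 0.63 and 0.00 to 10.44, 9.58 and 9.89. For these genes T0 lay at an intensity near 0, so the size of the change was set by the added constant. With 16 added in place of 1, the changes were 5.83 for both genes. The leading genes with a sequence name only were ZK1248.17 (11.23), Y51H7C.13 (9.38) and C33F10.1 (9.44).

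**Figure D1:**
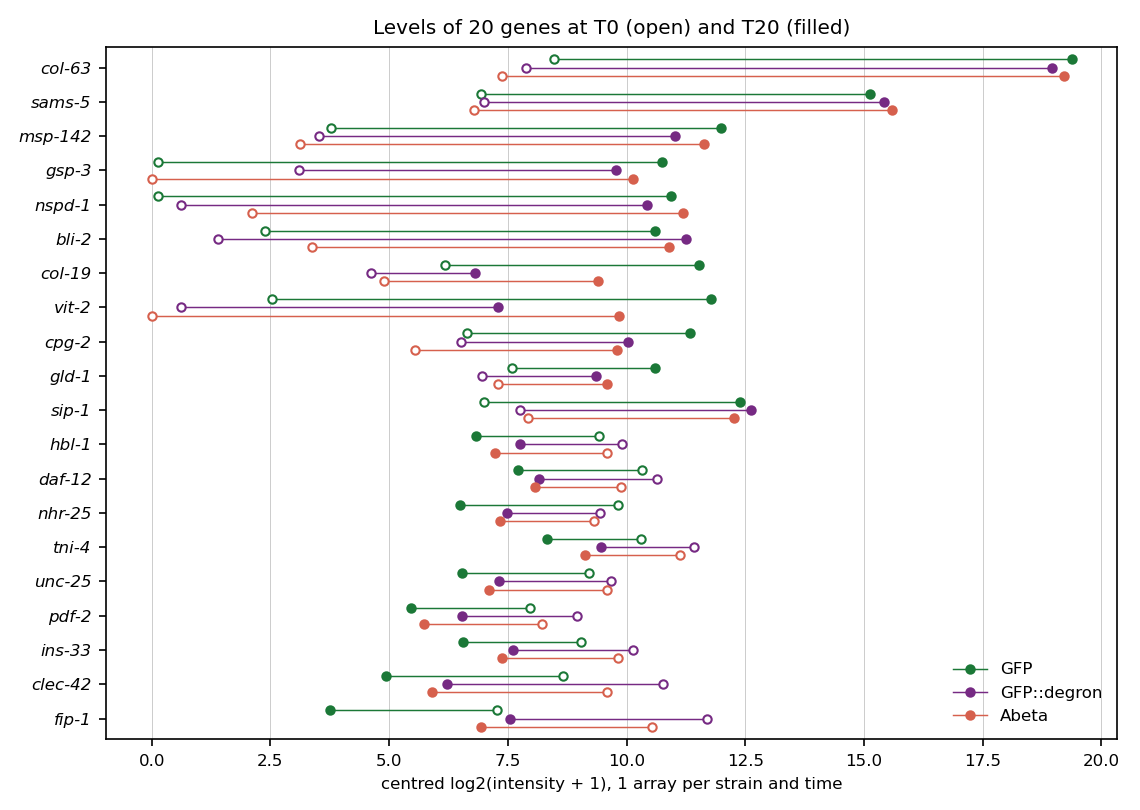
Centred log2(intensity + 1) of 20 genes, with T0 as open and T20 as filled circles, 1 array each, joined within the GFP, GFP::degron and Abeta strains. The first 11 genes rose and the last 9 fell in each strain, and col-19 and vit-2 reached clearly different T20 levels, from 6.81 in GFP::degron to 11.52 in GFP worms for col-19.

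Oocyte, meiotic and other germline genes rose together by smaller amounts. Of 44 oocyte and eggshell genes 32 rose and 4 fell, with a median change of 2.48. cpg-2, a chondroitin proteoglycan of the eggshell, went from 6.63, 6.52 and 5.55 to 11.33, 10.03 and 9.79, a shared change of 4.15 (SE 0.30, adjusted p = 0.00314). The groups did not overlap, and GFP worms ended highest. rme-2, the oocyte receptor for yolk, rose by 2.91, oma-1 and oma-2, RNA-binding proteins of maturing oocytes, by 2.81 and 2.55, and pos-1, a maternal RNA-binding protein of the embryo, by 3.90. gld-1, a translational repressor that carries germ cells through meiotic prophase, went from 7.58, 6.95 and 7.29 to 10.61, 9.35 and 9.58 (shared change 2.57, SE 0.24, adjusted p = 0.00543). Its dimmer probe set changed by 2.04, 1.75 and -0.15. The 4 genes of the list that fell were lin-41 (-2.23), a heterochronic regulator that is also used in oocytes, cav-1 (-1.80), puf-12 (-1.05) and meg-2 (-1.04), and 1 of the 44 fell without centring.

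Of 36 meiosis and chromosome axis genes 26 rose and none fell, with a median of 1.69. him-14, a MutS homologue needed for crossovers, went from 3.53, 1.88 and 4.30 to 6.66, 6.57 and 7.07, and htp-1, a chromosome axis protein, from 6.69, 4.65 and 6.39 to 9.52, 9.19 and 8.87. In both genes the GFP::degron T0 array was the lowest. spo-11, which makes the double-strand breaks of meiosis, rose by 2.54 (SE 0.21, adjusted p = 0.00416), and so did syp-1 (2.07), syp-2 (2.75), syp-3 (1.70) and syp-4 (1.68), proteins of the synaptonemal complex. Of 34 P granule and germline small RNA genes 17 rose and none fell (median 1.02). The largest rise among them was that of alg-3 (4.01, SE 0.25), an Argonaute of the male germline small RNA pathway, followed by deps-1 (2.47), pgl-3 (2.39) and gld-3 (2.08). Of 42 mitotic genes 15 rose and 3 fell (median 0.82). The risers included cyb-1 (1.55), a B-type cyclin, air-1 (1.00), an Aurora kinase, and zen-4 (0.98), a kinesin of cytokinesis. Those that fell were the G1 genes cyd-1, cyclin D (-1.0), and cdk-4 (-1.11), its kinase, and the phosphatase gene cdc-25.2 (-1.01). None of these was called without centring, and the dimmer cyd-1 probe set changed by -2.32, 0.51 and -1.85. Of 33 DNA replication genes 7 rose, cdc-7 most (1.55), with a median of 0.44. Without the Abeta pair the higher calls numbered 18 oocyte, 13 meiosis, 7 P granule and 0 mitotic and DNA replication genes, with list medians of 1.81 (meiosis), 1.15 (P granule), 0.84 (mitotic) and 0.36 (replication). Without the GFP pair 17 meiosis, 11 P granule, 2 mitotic and 0 replication genes were called higher, and without the GFP::degron pair 18, 12, 5 and 3.

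Adult cuticle genes were among the large rises. Of 9 adult cuticle genes 4 rose: bli-2 (8.53), bli-1 (6.65), both collagens of the struts of the adult cuticle, col-120 (4.87) and col-19 (4.02). bli-1 went from 5.37, 3.95 and 4.89 to 11.12, 11.74 and 11.30 and ended at nearly the same level in the 3 strains. col-19, the usual marker of the adult epidermal program, went from 6.17, 4.61 and 4.89 to 11.52, 6.81 and 9.40 (SE 0.64, adjusted p = 0.0152). Its T20 levels were thus spread over a range as wide as the shared change itself, lowest in GFP::degron worms. Among 128 numbered cuticle collagens 28 rose and 6 fell, with a median of 0.11, and the rises were far larger than the falls. col-49 (7.27, SE 0.26) and col-38 (7.27, SE 0.45) led after col-63, whereas the 6 collagens that fell, such as col-41 (-2.49, SE 0.62), were not called without centring.

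More molting genes fell than rose, and few larval cuticle genes were called. Of 17 shape and furrow collagens, 4 fell (23.5%, against 17.3% of all genes) and none rose, and their median of -0.30 lay above the -0.39 of all genes. dpy-7, a furrow collagen of every larval molt, went from 10.07, 10.57 and 10.42 to 8.30, 9.82 and 8.97 (shared change -1.32, SE 0.28, adjusted p = 0.0278), and dpy-2, dpy-8 and dpy-9 changed by -1.17, -1.08 and -1.10. Without centring none of the 17 was called and their median was 0.08. rol-6, another shape collagen, was not called (-0.61, SE 0.34, adjusted p = 0.224). Of 15 enzymes that process and crosslink collagen 5 fell, among them bli-3 (-0.95), a dual oxidase, with its partners doxa-1 (-1.01) and tsp-15 (-1.22), and none of the 5 was called without centring. Of 32 molting genes 12 fell and 1 rose (median -0.75), and without centring 2 fell and 1 rose. nhr-25, a nuclear receptor needed for molting, went from 9.81, 9.44 and 9.32 to 6.49, 7.49 and 7.34 (shared change -2.42, SE 0.35, adjusted p = 0.0122), and nekl-3, a kinase of the molting epidermis, fell by 1.74. The gene that rose was kgb-2, a gene for a JNK-like kinase (2.76, SE 0.53). mlt-10, which oscillates with each molt, was not called and differed in sign between strains, from 9.32 to 8.62 in GFP worms, from 7.31 to 8.59 in GFP::degron worms and from 7.38 to 7.62 in Abeta worms.

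Of 27 heterochronic timing genes 12 fell and none rose, with a median of -0.87. hbl-1, which holds the epidermis in larval programs, went from 9.42, 9.90 and 9.59 to 6.82, 7.75 and 7.22 (shared change -2.37, SE 0.21, adjusted p = 0.00483). All 3 T20 levels lay more than 1 unit below all 3 T0 levels by this probe set, whereas the dimmer hbl-1 probe set changed by -1.92, -2.30 and 0.00. daf-12, the nuclear receptor that links steroid hormone to developmental decisions, went from 10.33, 10.64 and 9.87 to 7.71, 8.16 and 8.07, and lin-41, the let-7 target that opposes the adult program, from 9.51, 9.52 and 9.22 to 7.52, 6.91 and 7.13. The shared changes were -2.3 (SE 0.25, adjusted p = 0.00688) and -2.23 (SE 0.23, adjusted p = 0.00627). Of the other daf-12 probe sets, both dimmer, one changed by -3.46, -3.60 and -0.04 and the other by 0.35, 0.04 and -0.82. The dimmer lin-41 probe set changed by -2.12, -1.66 and -0.58. Without centring 3 of the 27 were called lower. Of the genes upstream and downstream of these, lin-28 (-0.17, SE 0.19, adjusted p = 0.535), lin-14 (-0.25, SE 0.20, adjusted p = 0.365) and lin-29 (0.68, SE 0.27, adjusted p = 0.119) were not called, and the lin-14 probe set was dim, at 0.84 to 3.77 on the 6 arrays. The other lin-28 probe sets, both dimmer, changed by -0.645, -1.16 and -0.475 and by -1.16, -1.38 and -0.33. With the mean of all its probe sets lin-28 changed by -0.61 and was not called (adjusted p = 0.104). Of 37 vulva, uterus and egg-laying genes 11 fell and 1 rose (median -0.56), but without centring 2 fell and 2 rose. Those called lower included egl-18 (-1.93) and elt-6 (-1.70), GATA factors of the vulval precursors, egl-15 (-1.66), the FGF receptor, and bar-1 (-1.22), a beta-catenin of Wnt signalling.

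In the somatic gonad and in sex determination the calls went both ways. Of 30 distal tip cell and gonad genes, 5 rose (16.7%, against 10.8% of all genes) and 7 fell (23.3%, against 17.3%). Among the risers were inx-8 (2.80), inx-14 (2.11), inx-22 (2.35) and inx-21 (1.5), innexins of the gap junctions between germ cells and the gonadal sheath. Among those that fell were unc-6 (-1.37), the netrin that guides migrating cells, and its receptor unc-40 (-1.13). Without centring 4 rose and 1 fell. Of 21 sex determination genes 5 rose (23.8%) and 2 fell (9.52%), 3 and 0 without centring. fog-2, which allows hermaphrodites to make sperm, rose by 1.74 (SE 0.27, adjusted p = 0.0142) and xol-1, the early sex switch gene, by 1.24 (SE 0.29, adjusted p = 0.0365) from levels of 2.69 to 3.76, while its other probe set changed by -1.62, -0.30 and -0.17.

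Of the yolk genes vit-1 and vit-2 rose, and the levels reached at T20 differed between strains. vit-2 went from 2.52 to 11.78 in GFP worms, from 0.61 to 7.30 in GFP::degron worms and from 0.01 to 9.84 in Abeta worms (shared change 8.59, SE 0.65, adjusted p = 0.00362). T0 was near an intensity of 0 in GFP::degron and Abeta worms, and with 16 added in place of 1 the change was 5.41. The T20 levels lay in the order GFP, Abeta, GFP::degron, and the difference between strains was not called. vit-1 went from 5.36, 2.50 and 4.55 to 10.37, 7.21 and 7.97, in the same T20 order (shared change 4.38, SE 0.37, adjusted p = 0.00435). vit-5 changed by 8.42 in GFP worms, -0.73 in GFP::degron worms and 6.74 in Abeta worms, and the shared change was not called (4.81, adjusted p = 0.109). The departure of GFP::degron worms in vit-5, its change minus the mean of the other strains' changes, was -8.31 (SE 2.38, adjusted p = 0.204). At T20 alone, vit-6 in GFP::degron worms lay 5.41 below the mean of the other strains (adjusted p = 0.0382). The brighter of its probe sets went from 6.88 to 7.47 in GFP::degron worms, against 7.15 to 13.66 in GFP and 6.85 to 12.10 in Abeta worms, and the dimmer from 0.64 to 6.33, 4.43 to 12.10 and 2.70 to 9.94.

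The vit-4 probe sets disagreed. The brightest, which stands for the gene here, changed by 4.98 in GFP worms, -0.54 in GFP::degron worms and -0.36 in Abeta worms. The other 2 changed by 7.98 and 8.05 in GFP worms, by -0.39 and -0.21 in GFP::degron worms, and by 6.33 and 6.02 in Abeta worms. All 3 were thus higher at T20 in GFP worms and slightly lower in GFP::degron worms, and they differed in Abeta worms. The vit genes are close copies and these probe sets can read more than 1 of them. Of 5 yolk genes 2 were called higher (vit-1 and vit-2), and without the GFP::degron pair 4 were.

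**Figure D2:**
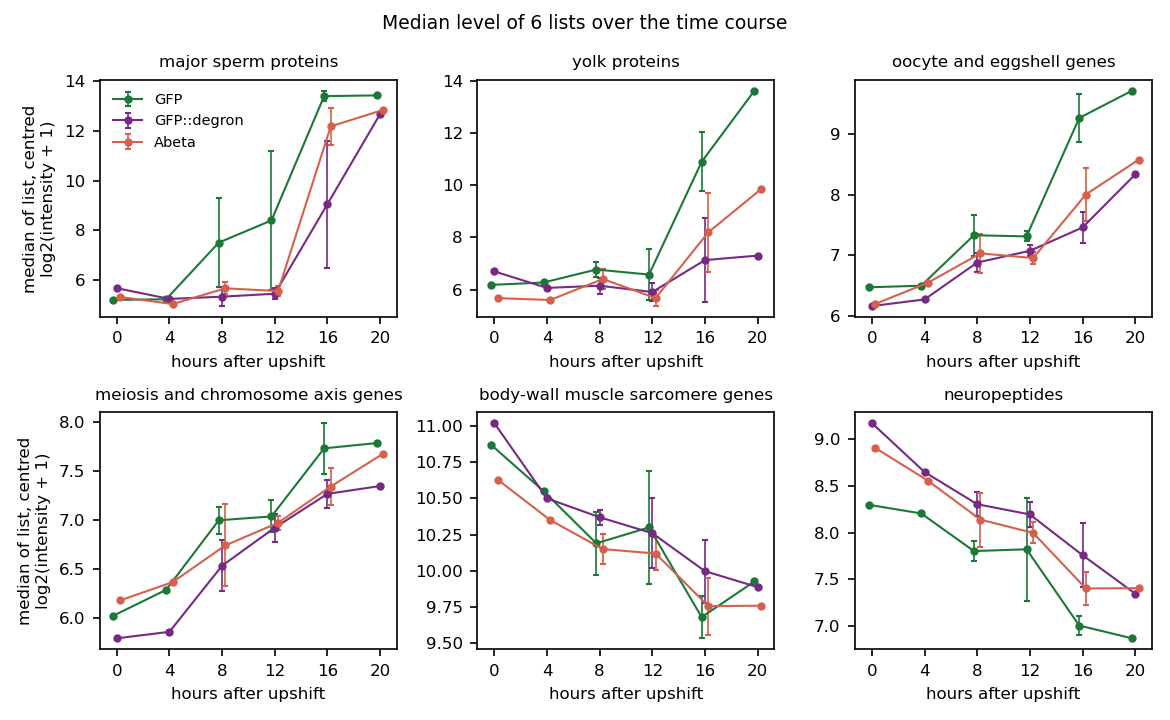
Median centred log2(intensity + 1) of 6 lists at 0, 4, 8, 12, 16 and 20 hours in the GFP, GFP::degron and Abeta strains. Points are means over the arrays of a group, bars are SD where a group has more than 1 array, and 1 dim GFP array at 8 hours is left out. Major sperm proteins stood at 13.40 (GFP), 12.18 (Abeta) and 9.05 (GFP::degron) at 16 hours and lay between 12.68 and 13.43 in all 3 strains at 20 hours, whereas the yolk list at 20 hours still ranged from 7.30 to 13.62.

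Neuronal genes fell. Of 72 neuropeptide genes 57 fell and none rose, with a median of -1.59 against -0.39 for all genes, and 47 fell without centring. pdf-2, which encodes a pigment-dispersing-factor-like peptide, went from 7.97, 8.95 and 8.23 to 5.45, 6.53 and 5.74 (shared change -2.48, SE 0.20, adjusted p = 0.00381). The 3 strains fell by nearly the same amount. Without the Abeta pair 18 of the 72 were called, with a median of -1.68. Of 34 neuronal transmission genes 25 fell and none rose (median -1.53, and 15 without centring). unc-25, the enzyme that makes GABA, went from 9.20, 9.68 and 9.59 to 6.53, 7.31 and 7.11 (-2.50, SE 0.20, adjusted p = 0.00401). unc-17, the vesicular acetylcholine transporter, fell by 2.15, rab-3, a synaptic vesicle GTPase, by 2.02, eat-4, the vesicular glutamate transporter, by 1.88, and egl-3, a proprotein convertase that cuts neuropeptide precursors, by 1.80. Of 24 insulin-like peptide genes 14 fell and 2 rose (median -1.07). ins-33 went from 9.04, 10.14 and 9.81 to 6.55, 7.61 and 7.37 (-2.49, SE 0.19, adjusted p = 0.00379). daf-28, an insulin that opposes dauer arrest, changed by -2.27 (SE 0.29), and the genes that rose were ins-37 (2.96, SE 0.52) and ins-7 (1.62, SE 0.28). Without centring 8 of the 24 fell and 2 rose.

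Muscle genes fell too, though fewer were called without centring, where 727 of all 17118 genes were called lower. Of 41 body-wall sarcomere genes 22 fell and none rose (median -0.96). Without centring 5 fell, with a median of -0.58 against -0.02 for all genes. tni-4, a troponin I, went from 10.31, 11.41 and 11.13 to 8.32, 9.47 and 9.13 (-1.98, SE 0.19, adjusted p = 0.00573), and unc-22, twitchin, from 10.03, 10.66 and 10.36 to 7.86, 8.28 and 8.68 (-2.08, SE 0.23, adjusted p = 0.00726). myo-3, the main myosin heavy chain of body-wall muscle, fell by 1.38 and hlh-1, the MyoD homologue, by 1.67. Of 19 pharyngeal and other muscle genes 12 fell and none rose (median -1.27), 6 without centring (median -0.89). They included the pharyngeal myosins myo-1 (-1.60), myo-2 (-1.40) and myo-5 (-1.44), the pharyngeal troponin C tnc-2 (-1.98, SE 0.21) and pha-4 (-1.27), the FoxA factor of pharynx identity. Without the Abeta pair 2 of the 41 sarcomere genes and 1 of the 19 pharyngeal genes were called.

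Calls in defence and metabolic families are to be read against the 17.3% of all genes called lower, and those without centring against 727 of 17118 genes. Of 31 epidermal antimicrobial peptide genes 11 fell (35.5%) and none rose (median -1.17). fip-1 went from 7.27, 11.69 and 10.53 to 3.75, 7.55 and 6.94 (-3.75, SE 0.23, adjusted p = 0.0025). The strains started 4 units apart and each fell by a like amount. nlp-29, a peptide induced by wounding and fungal infection, fell by 2.16, and cnc-2, a caenacin, by 3.06 (SE 0.61, adjusted p = 0.025), most of it in GFP::degron and Abeta worms, which were higher at T0 (10.31 and 9.26 against 6.37). Of 259 nuclear hormone receptor genes 72 fell (27.8%) and 2 rose (median -0.61), and 14 fell without centring. nhr-155 led all falls, from 7.09, 6.72 and 6.01 to 2.25, 3.03 and 0.71 (-4.61, SE 0.36, adjusted p = 0.00381), and with 16 added its change was -2.62. Of 45 glutathione S-transferase genes 14 fell (31.1%) and none rose (median -0.65), gst-14 most, from 6.50, 6.98 and 6.71 to 3.07, 3.91 and 1.99, and 6 fell without centring. Of 220 C-type lectin genes 15 rose and 27 fell (12.3%), clec-79 rising by 6.79 (SE 0.40) and clec-42 changing by -3.98 (SE 0.27). Cytochrome P450 genes split 7 up and 12 down of 74, and UDP-glucuronosyltransferase genes 8 up and 17 down (26.6%) of 64. The lectin and P450 shares were thus no higher than that of all genes. Without centring the lower calls numbered 11 lectin, 5 P450 and 4 UDP-glucuronosyltransferase genes. The other leading falls were those of lips-11 (-3.24), a lipase-related gene, tba-8 (-3.25), an alpha-tubulin, rpi-1 (-3.28), srlf-34, scl-3 and hpo-26. Of 28 genes of fatty acid synthesis and membrane regulation 5 fell (17.9%), among them fasn-1, fatty acid synthase (-1.49, SE 0.21, adjusted p = 0.0117), and elo-7, an elongase gene, rose by 4.08 (SE 0.25). Without centring none of the 28 was called lower and 2 were called higher. fat-7, a stearoyl-CoA desaturase gene, was not called (-0.96, SE 0.31, adjusted p = 0.0761).

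Among stress genes, the small heat shock genes were called in both directions. Of 11 small heat shock genes and hsp-70, 3 rose (27.3%, against 10.8% of all genes) and 3 fell (27.3%, against 17.3%). sip-1, a small heat shock protein of oocytes and embryos, went from 6.99, 7.75 and 7.92 to 12.39, 12.62 and 12.26 (4.87, SE 0.28, adjusted p = 0.00211). hsp-16.41 went from 5.99, 9.06 and 8.47 to 9.22, 10.66 and 11.55 (2.64, SE 0.39, adjusted p = 0.0127), and hsp-16.2 from 6.53, 9.33 and 8.82 to 9.22, 10.12 and 11.35 (2.00, SE 0.44, adjusted p = 0.0309). The GFP::degron and Abeta worms already stood above GFP worms at T0 in both genes, and the level at T20 was above that at T0 in every strain. hsp-70 went from 5.78 to 6.93, from 8.28 to 9.01 and from 6.84 to 10.20, and was not called (1.75, SE 0.56, adjusted p = 0.0768). hsp-12.1, hsp-12.2 and hsp-17 fell by 1.38, 1.41 and 0.96, and none of them was called without centring. hsp-4, the BiP chaperone of the endoplasmic reticulum, rose by 1.25 (SE 0.27, adjusted p = 0.0302), and hsp-6, the mitochondrial Hsp70, fell by 1.02 (SE 0.21, adjusted p = 0.0283). Of 32 cytosolic chaperone and co-chaperone genes 2 fell (6.25%), aha-1 and pfd-6, and none was called without centring. Among 18 targets of the transcription factor DAF-16, 4 rose (22.2%) and 1 fell (5.56%). lea-1 rose by 3.34 (SE 0.27) by its brightest probe set, and another of its probe sets changed by 3.88, 2.88 and 3.09. Its other 4 changed by -1.14 to 0.19. sod-3, a mitochondrial superoxide dismutase gene, was not called (-0.43, SE 0.20, adjusted p = 0.169). Of 73 cytosolic ribosomal protein genes 1 fell (rpl-11.2) and none rose, with a median of -0.59 against -0.39 for all genes. In all, 71 of the 73 were lower at T20 in every strain, where 48% of all genes were. With 16 added 46 of the 73 were called lower, against 4765 of all 17118 genes, and without centring none was. Of 39 oxidative phosphorylation genes 2 rose and 1 fell: ucr-2.3 (1.60) and asb-1 (1.05) rose, and asb-2, the other copy of ATP synthase subunit b, fell by 0.85 (SE 0.21, adjusted p = 0.0426).

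The remaining lists gave scattered calls, to be read against the 10.8% of all genes called higher and the 17.3% called lower. The share called lower was no higher than that in the hedgehog-related (17.3%), astacin (12.1%), lysozyme (12.8%), endoplasmic reticulum (15.4%), intestinal (14.8%) and nonsense-mediated decay (9.09%) lists. It was 20% in the mitochondrial, 25% in the cuticlin and 47.1% in the fatty acid and retinol binding list. Of 40 cuticlin and zona pellucida domain genes 1 rose, cutl-18 (1.59), and 10 fell, among them let-653 (-1.84), a matrix protein of developing tubes, with 1 and 2 called without centring. Hedgehog-related and patched-related genes, which act in the epidermis around molts, split 5 up and 14 down of 81 (3 and 3 without centring), grl-22 rising by 1.79 and ptr-5 changing by -1.86. Astacin metalloprotease genes split 2 up and 4 down of 33, and 5 of 39 lysozyme, saposin and antibacterial factor genes fell, with 2 lower calls in each list without centring. In the endoplasmic reticulum list hsp-4, a BiP chaperone gene, rose (1.25, SE 0.27) and 4 of 26 fell, among them fkb-5 (-1.46), a gene for a prolyl isomerase, and in the mitochondrial list 3 of 15 fell. Without centring these were 1 of 26 and 1 of 15. Of 27 intestinal genes 4 fell and 1, the metallothionein gene mtl-1 (1.39, SE 0.30), rose, and 1 fell without centring. Of 17 fatty acid and retinol binding protein genes 8 fell and 1 rose, lbp-8 changing by -2.06 (SE 0.20), with 2 and 0 called without centring. Of 11 nonsense-mediated decay genes 3 rose, among them smg-5 (1.17, SE 0.22), and 1, smg-6, fell (-0.83, SE 0.20), with 2 and 0 called without centring. The counts without centring stand beside 1917 higher and 727 lower genes of all 17118.

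**Figure D3:**
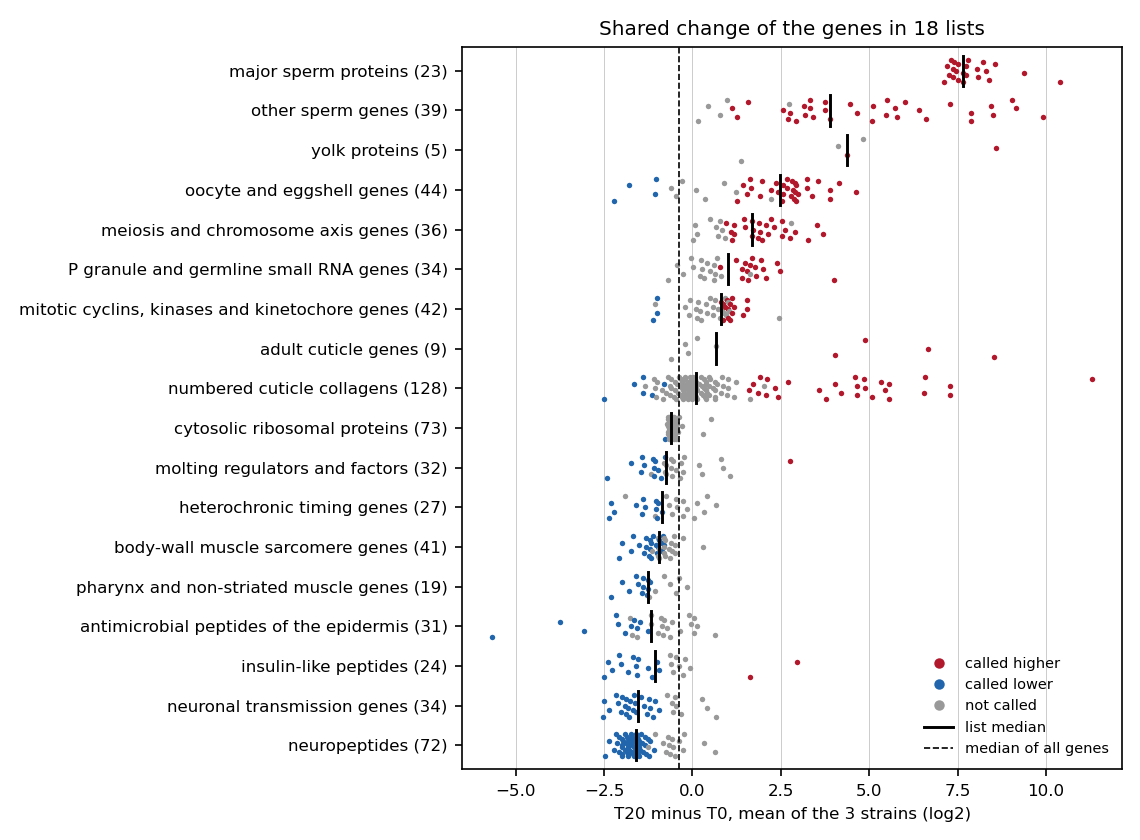
Shared change, the mean over 3 strains of T20 minus T0 in log2 units, for every measured gene of 18 lists, with the number of genes in brackets. Red points were called higher, blue lower and grey neither, black bars are list medians, and the dashed line is the median of all genes at -0.39. All 23 major sperm protein genes lie to the right of 7, and 57 of 72 neuropeptide genes are blue.

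The X chromosome stood apart from the autosomes. Of its 2352 measured genes 43 (1.83%) were called higher and 753 (32%) lower. On chromosomes I to V the share called higher was 7.64% to 16% and the share called lower 13.3% to 16.1%. X-linked genes had a median change of -0.74 (GFP), -0.66 (GFP::degron) and -0.70 (Abeta), and the autosomal medians of the shared change lay between -0.41 on chromosome V and -0.27 on chromosome I. Chromosome IV held 231 of the genes that rose by at least 2 in every strain, chromosome II 166, chromosome I 162 and the X 18. The X-linked genes called higher with the largest shared changes were vit-2 (8.59), ttr-14 (7.0), of the transthyretin-like family, F54F7.3 (6.03), F53H4.2 (5.74), C14F11.4 (5.53) and nep-4 (5.17). Smaller X-linked rises included col-181 (4.64), vit-1 (4.38) and col-19 (4.02). The X-linked genes already named among the falls include hbl-1, daf-12, nhr-25, dpy-7 and pdf-2. Lists such as the neuropeptides and the sperm genes are unevenly placed on the chromosomes, and their part in these shares was not tested.

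**Figure D4:**
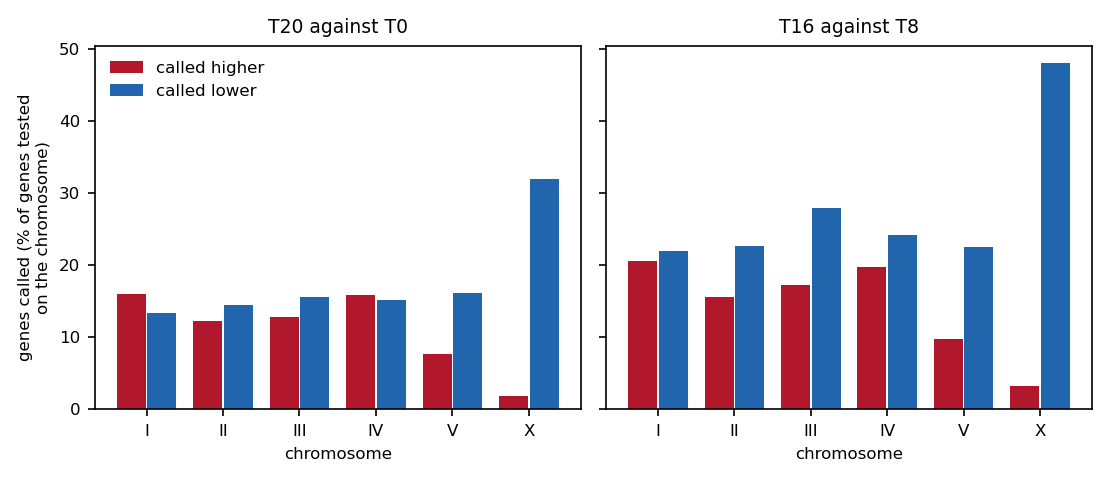
Percentage of the genes tested on each chromosome that were called higher (red) or lower (blue) at T20 against T0 (left) and, on other arrays of the same strains, at T16 against T8 (right). The X has the lowest red bar (1.83% and 3.19%) and the highest blue bar (32% and 48.1%) in both panels.

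The arrays at 8 and 16 hours, which have replicates and played no part in the comparison above, gave the same directions for most calls. There, 2394 genes were called higher (14%) and 4611 lower (26.9%) at T16 than at T8, over 23 arrays of the 3 strains. Of the 1849 genes higher at T20, 1695 (91.7%) were also called higher at T16 than at T8, and of the 2967 lower genes 2398 (80.8%) were also called lower. Conversely, 70.8% of the T16 rises and 52% of the T16 falls were among the calls at T20. A single gene in each direction was called the opposite way. All 23 major sperm protein genes, 38 of 39 other sperm genes, 34 of 44 oocyte genes and 32 of 36 meiosis genes were called higher, and 60 of 72 neuropeptide genes and 36 of 41 sarcomere genes lower. The size was smaller in this shorter interval, with a median of 5.38 for major sperm proteins and -0.68 for neuropeptides. On the X, 75 genes (3.19%) were called higher and 1131 (48.1%) lower.

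The course between the 2 ends differed among the strains. Among the 799 genes that rose by at least 2 in every strain, the median change from T0 was 1.33 at 12 hours, 4.08 at 16 hours and 4.23 at 20 hours in GFP worms. In Abeta worms it was 0.25, 3.08 and 3.89, and in GFP::degron worms 0.27, 1.95 and 3.70. These genes were chosen from T0 and T20 alone, so their ends are set by the choice while the times between are not. The 12-hour GFP value averages 5 arrays that differed widely. Their major sperm protein medians ran from 5.27 to 11.21, against 5.32 to 5.81 on the Abeta and 5.16 to 5.70 on the GFP::degron arrays. At 16 hours 755 of the 799 (94.5%) stood highest in GFP, next in Abeta and lowest in GFP::degron worms, and at 20 hours 479 (59.9%) did. Genes share arrays and are not independent, so these shares describe the libraries. The 1201 genes that fell by at least 1 in every strain moved more evenly, with medians at 16 hours of -1.53, -1.45 and -1.37 in GFP, Abeta and GFP::degron worms, against -1.58, -1.56 and -1.69 at 20 hours.

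The lists differed in how far the strains had met by T20. At 16 hours the major sperm proteins had a median level of 13.40 ± 0.22 (SD, n = 4) on the GFP arrays. It was 12.18 ± 0.76 (SD, n = 4) on the Abeta arrays and 9.05 ± 2.56 (SD, n = 4) on those of GFP::degron worms. GFP::degron replicate 2 stood at 12.41 against 6.33 to 9.33 on the others, and without it the mean was 7.93 ± 1.51 (SD, n = 3). In the yolk list that array stood at 9.49 against 5.95 to 6.66. At 20 hours the major sperm protein median was 13.43, 12.85 and 12.68 on the single GFP, Abeta and GFP::degron arrays. The oocyte list stood at 9.26 ± 0.40 (SD, n = 4), 8.00 ± 0.44 (SD, n = 4) and 7.46 ± 0.26 (SD, n = 4) at 16 hours and at 9.71, 8.57 and 8.33 at 20 hours, and the GFP::degron mean without replicate 2 was 7.33 ± 0.080 (SD, n = 3). The 20-hour values of the Abeta and GFP::degron worms thus lay below the 16-hour mean of GFP worms for oocyte genes. vit-2 stood at 11.09, 7.54 and 4.48 at 16 hours in the GFP, Abeta and GFP::degron strains and col-19 at 10.93, 7.57 and 6.23. With T16 in place of T20, the genes in which a single strain departed numbered 202 for GFP, 578 for GFP::degron and 29 for Abeta worms. The T16 groups have 4 arrays each, so these counts come from a more precise fit than the T20 counts that follow.

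At T20 few genes departed in 1 strain. A departure is the T20 minus T0 change of a strain minus the mean change of the other strains, tested with the spread of the replicated groups. In GFP worms 23 genes (0.134%) departed, 13 upward (0.0759%) and 10 downward (0.0584%). In GFP::degron worms 35 did (0.204%), 31 upward (0.181%) and 4 downward (0.0234%), and in Abeta worms 6 (0.0351%), 1 upward (0.00584%) and 5 downward (0.0292%). Together these were 53 genes, 10 of them in more than 1 strain and 4 among the shared calls. At an unadjusted p under 0.05 the counts were 1366, 1399 and 769 of 17118 genes. At that limit chance alone passes a share of about 0.05, and the Abeta count lay below it. In GFP and GFP::degron worms most departures went with a difference between strains at T0, in Abeta worms more often at T20: 15 of the 23, 30 of the 35 and 2 of the 6 differed at T0, and 8, 3 and 4 at T20.

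Many departing genes held a reading close to 0. Of the 53, 25 (47.2%) had an intensity under 1 on at least 1 of the 6 arrays, against 6.55% of all genes, and for 19 of the 53 it was the GFP::degron T0 array. scl-23, a secreted protein gene of the SCP/TAPS family, stood at 0.74 at T0 in GFP::degron worms, against 6.09 and 5.20 in GFP and Abeta worms, and at 4.42 to 5.72 at every later time in GFP::degron worms. Its departure of 4.83 (SE 0.57, adjusted p = 3.22e-05) was thus carried by 1 array. The other leading upward departures of GFP::degron worms were clec-191 (5.74), Y53G8AM.4 (4.64), ugt-38 (4.31) and F35E2.8 (4.08). clec-191, ugt-38 and F35E2.8 stood at 0.65, 0.69 and 0.70 on that array and at 4.02, 4.21 and 4.18 at T20. For clec-191 the GFP T20 array was near 0 too, at -0.09 against 3.84 on the GFP T0 array. nas-13, an astacin metalloprotease gene, stood at 0.65 there and departed by -4.50 (SE 0.54, adjusted p = 1.89e-05) in GFP worms. In Abeta worms the T20 array gave 0.82 for srn-1 and -0.19 for srg-14, both chemoreceptor genes, which had stood at 4.48 to 5.05 and 3.42 to 4.11 at 4 to 16 hours. With 16 added in place of 1, which damps such readings, 9, 2 and 2 genes departed in GFP, GFP::degron and Abeta worms.

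The other departing genes had no reading under 1, but some had an intensity just above it. Among these were Y53G8AM.4 (1.08 on the GFP::degron T0 array), nhr-262 and fbxa-211 (1.84 and 1.91 on the GFP T0 array). The genes described next were brighter on all 6 arrays. perm-2, which helps form the permeability barrier of the eggshell, went from 5.48 to 10.04 in GFP worms and from 5.36 to 8.04 in Abeta worms, but from 6.17 to 5.64 in GFP::degron worms. It had reached 9.62 in GFP worms at 16 hours, when Abeta and GFP::degron worms stood at 5.95 and 6.13. The departure of GFP::degron worms was -4.15 (SE 0.70, adjusted p = 0.00194) and stayed past the threshold with 16 added (-3.70, adjusted p = 0.00365). nex-1, an annexin gene, stood at 9.91, 12.38 and 11.22 at T0 and at 10.80, 11.19 and 11.10 at T20, so the strains differed at T0 and had met at T20 (departure of GFP::degron worms -1.58, SE 0.30, adjusted p = 0.0103). With 16 added this departure was -1.49 and was not called (adjusted p = 0.0623). F32B5.2 went from 8.76 to 4.92 in Abeta worms (departure -3.26, SE 0.59, adjusted p = 0.0186). It stayed between 6.71 and 7.84 at all times in the other strains. Abeta worms stood at 7.1, 7.2, 7.3 and 6.6 at 4, 8, 12 and 16 hours, so this departure rested on the lone T0 and T20 arrays. vit-4 departed upward in GFP worms by 5.43 (SE 0.41, adjusted p = 8.31e-10) and downward in GFP::degron worms by 2.85, with the disagreement between its probe sets given above. With the mean of its probe sets, the departures were 5.21 (SE 1.49, adjusted p = 0.205) and -5.91 (SE 1.49, adjusted p = 0.115), as large or larger but with a wider error, and neither was called.

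**Figure D5:**
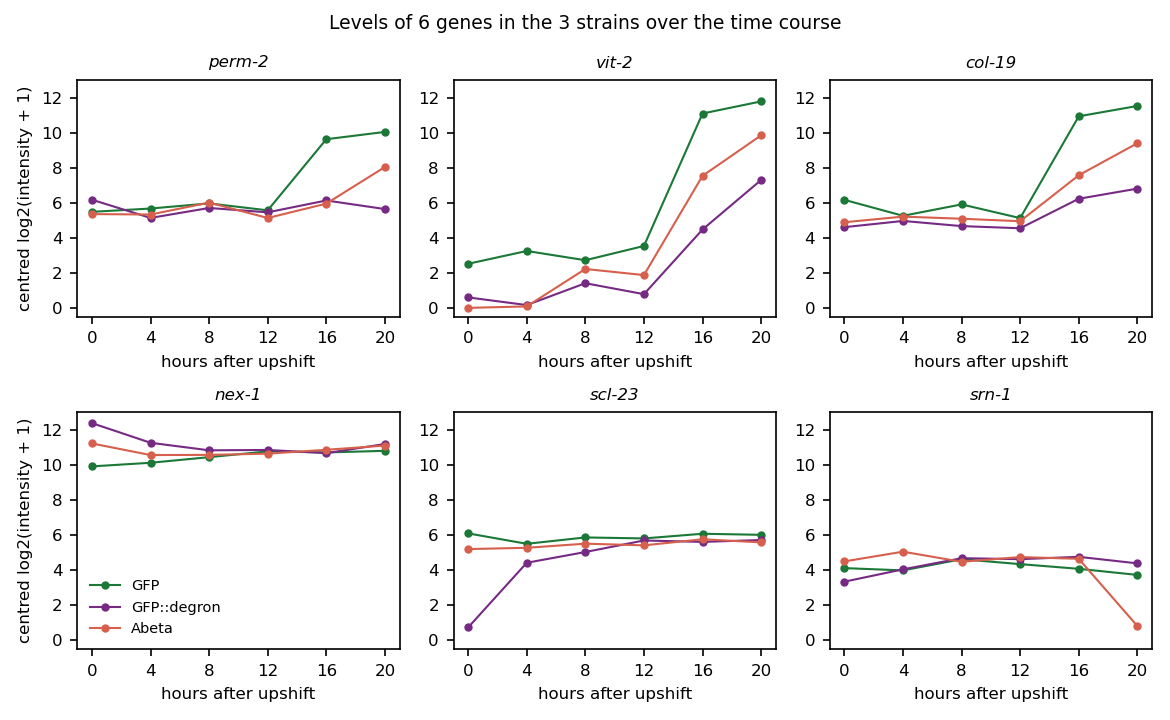
Centred log2(intensity + 1) of 6 genes at 0, 4, 8, 12, 16 and 20 hours in the GFP, GFP::degron and Abeta strains, as group means (1 array at 0, 4 and 20 hours). perm-2, vit-2 and col-19 end in the order GFP, Abeta, GFP::degron, nex-1 starts apart and meets, and scl-23 and srn-1 depart through 1 low array each, at 0.74 and 0.82.

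Of the 2 ends, more genes differed between strains at T0 than at T20, and the times between were not counted in this way. At T0, 287 genes (1.68%) differed between GFP worms and the mean of the other strains, 969 (5.66%) between GFP::degron worms and the others, and 137 (0.8%) between Abeta worms and the others. At T20 the counts were 141 (0.824%), 21 (0.123%) and 92 (0.537%). The high count at T0 belongs to the dimmest array, and its part in that count was not tested. gtnt-8 separated GFP::degron worms at both ends, at 8.49 against 0.66 and 0.87 at T0 and at 6.91 against -0.10 and -0.21 at T20. It was called lower in the shared test (-1.14, SE 0.25, adjusted p = 0.0312), although both other strains stood near an intensity of 0 at T0 and T20. At T4 they stood at 2.35 (GFP) and 3.2 (Abeta).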

How the data were processed

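Total RNA from whole worms was labelled and hybridised to 1-colour Affymetrix arrays. Per the submitters' processing notes, the deposited values came from Affymetrix Expression Console 1.1; the values are summarised probe set intensity on a linear scale, deposited by the authors, and neither the algorithm nor the scaling is given in the sources used here. Probe sets were named from the platform annotation: 20766 of 22625 named 1 gene, 887 named several and 895 none, and 77 were controls. Each of 17118 genes was read from its brightest single-gene probe set. Values were taken as log2(intensity + 1), and each array was centred on its median. limma 3.58.1 in R 4.3.3 fitted the 6 arrays with strain as a block (empirical Bayes, Benjamini-Hochberg over all 17118 genes, adjusted p under 0.05). Departures, single-strain changes, strain differences at 1 time and T16 against T8 came from a fit of 18 group means to 46 arrays (28 residual degrees of freedom), in which the lone T0, T4 and T20 arrays were assumed to vary like the replicated groups. One GFP array at 8 hours with a median intensity of 20.3 was left out of that fit. The files give no detection calls. The code was tested on simulated data. Figures were drawn with matplotlib 3.10.9.

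The genes named in the text were the 10 named and 3 unnamed genes with the largest smallest change in each direction, up to 3 called genes of each list in each direction, the 5 largest departures per strain and direction, and fixed stage and stress genes; further called members of a list are named as examples, chosen after their values were seen. The samples, lists and tests were chosen with earlier results of these data known.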

Additional observations from a re-analysis of the deposited data

Results flagged for a closer look

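The following departures, each a strain's T20 minus T0 change minus the mean change of the other strains in log2 units, passed the test of the difference itself in limma's all-array fit. In GFP worms these were vit-4 (5.43), F26D11.13 (4.64), scrm-3 (3.66), nhr-262 (3.63) and fbxa-211 (3.62) upward, and nas-13 (-4.5), gst-2 (-4.14), Y53G8AM.4 (-4.03), F54F7.6 (-3.56) and srt-11 (-3.29) downward. In GFP::degron worms they were clec-191 (5.74), scl-23 (4.83), Y53G8AM.4 (4.64), ugt-38 (4.31) and F35E2.8 (4.08) upward, and F26D11.13 (-5.11), perm-2 (-4.15), vit-4 (-2.85) and nex-1 (-1.59) downward. In Abeta worms they were C16B8.2 (2.4) upward, and bath-22 (-4.15), srn-1 (-4.01), srg-14 (-3.58), F32B5.2 (-3.26) and vit-4 (-2.58) downward. gst-2 and srt-11 stood at -0.13 and -0.10 on the GFP T20 array and at 3.62 to 3.99 and 3.09 to 3.61 at T20 in the other strains. nhr-262 and fbxa-211 stood at 1.58 and 1.61 on the GFP T0 array and at 3.60 and 5.09 on the GFP T4 array. bath-22 stood at 0.08 and 0.65 at T0 in GFP and GFP::degron worms and at 4.08 in Abeta worms, and at 5.68 to 6.40 in all 3 at T20. C16B8.2 stood at 3.09 on the Abeta T0 array and at 5.56 to 5.97 in Abeta worms at 4 to 16 hours. Its other probe set changed by -1.16, 0.995 and -0.77 in GFP, GFP::degron and Abeta worms. Its Abeta departure was 0.87 with the mean of its probe sets and 1.42 with 16 added (adjusted p = 0.339), and neither was called.

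The median levels of 6 lists were examined in each strain and time with 4 or 5 arrays, 48 examinations in all, and 2 showed an array far from the rest, where chance gives about 1 in 20. The neuropeptide median of GFP::degron replicate 2 at 16 hours was 7.24, against 7.91 to 7.94 in the other 3 arrays, and the meiosis median of Abeta replicate 2 at 12 hours was 7.08, against 6.93 to 6.95 in the others.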

How the results depend on the processing

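The count of genes higher at T20, 1849, lay within 1.5 times under every scaling, filter and probe set rule tried (1706 to 2444), and at 1771 with T4 in place of T0 and 1229 with T16 in place of T20. The count of lower genes, 2967, was 727 without centring, 4765 with 16 added, 5680 with the spread of the all-array fit, 1873 with T16 in place of T20 and, with each strain centred on the median change of all genes, an alternative chosen after seeing the data, 1090. The share of calls that were higher was 38.4% as reported, 72.5% without centring, 45.5% after quantile normalization and 67.1% with that centring on the median change. All T0 and T20 arrays carry the replicate number 1, so the pairing is by strain. With the replicate number as a block in the all-array fit, 2444 genes were higher and 5912 lower, and 29, 46 and 5 departed in GFP, GFP::degron and Abeta worms. Leaving out 1 strain gave 948 to 1487 higher genes and 328 to 1295 lower genes, the lowest of both without the Abeta pair; 1 residual degree of freedom is left there. Of the 4816 calls, 4816 had the same sign without centring and after quantile normalization, and 4790 with T16 as the end.

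Departures in GFP worms (23) numbered 13 after quantile normalization, 9 with 16 added, 12 among genes with a mean intensity of at least 32, 7 with the dim GFP array at 8 hours, 7 with T4 as the start, 202 with T16 as the end, and 10 to 42 with 1 other strain left out. Those in GFP::degron worms (35) numbered 109 without centring and then 21, 2, 14, 18 and 578 under quantile normalization, 16 added, the intensity filter, T4 and T16, and 15 to 42 with 1 other strain left out. Of the 35, 2 were called with T4 in place of the dim T0 array. Those in Abeta worms (6) numbered 2 with 16 added, 3 with the filter, 3 with the dim array, 29 with T16, and 10 to 15 with 1 other strain left out.

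Of the named genes, signs reversed for lin-14 (0.12 without centring and on the median change, 0.64 with T16), lin-28 (0.21 without centring, 0.056 after quantile normalization, 0.15 with T4, 0.21 on the median change), mlt-10 (-0.23 to 0.76 with 1 strain left out, -0.12 with T4, -0.16 with T16) and nhr-76 (-0.042 with the mean of all probe sets), and for the Abeta departures of vit-4 (0.70 with all probe sets, -5.34 to 0.18 with 1 other strain left out, 0.18 with T16), C16B8.2 (-0.37 with T4) and bath-22 (0.68 with T4). The cause of these shifts was not tested. The arrays give no counts, and 1 array per strain and time limits the precision.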

Other observations

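Among the 113 gene families with a shared symbol and at least 15 measured genes, the msp family had the highest share of members called higher (23 of 23), followed by the spe family of spermatogenesis genes (20 of 29, 69%). The next were bath (11 of 38, 28.9%), btb (5 of 18, 27.8%) and fbxa (41 of 171, 24%), families of BTB and MATH domain or F-box proteins, of which many act as substrate adaptors of ubiquitin ligases, against 10.8% of all genes. The fbxa median was 0.09, against -0.39 for all genes, and 41 of its 171 members were called higher. Related families lay below the share of all genes: fbxb (2 of 95, 2.11%), fbxc (4 of 44, 9.09%) and math (4 of 47, 8.51%). The oac family of acyltransferase-like genes had 11 of 52 (21.2%) higher.

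Among the falls, the families with the highest shares were flp (22 of 25, 88%), mec, the genes of touch receptor neurons (13 of 16, 81.2%), nlp (39 of 58, 67.2%) and nssp (27 of 43, 62.8%), against 17.3% of all genes. The unc genes, named for uncoordinated movement and largely acting in neurons and muscle, had 52 of 94 (55.3%) lower, the glb globins 15 of 30 (50%) and the lgc ligand-gated channels 21 of 45 (46.7%), and the ins and tsp families, at 56.5% and 52.9%, lay among them. No member of the flp, mec, nlp, nssp, unc, glb or lgc families was called higher. Of 18 vha genes, subunits of the vacuolar proton pump, 8 were lower and 1 higher, and of 40 transthyretin-like ttr genes 16 were lower and 3 higher. These families were ranked after their values were seen.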
